A study of Rattus norvegicus with 91 samples.

Results

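Genes of the first line of drug and steroid metabolism were followed in the liver of rats given methylprednisolone, a synthetic glucocorticoid. They were the cytochrome P450 genes of families 1, 2 and 3, the UDP-glucuronosyltransferase genes of families 1 and 2, the flavin-containing monooxygenase genes, and Por, the reductase that serves the P450 enzymes. A probe set, the group of array probes read out as 1 signal, was a member if its annotation gave a single symbol beginning with Cyp1, Cyp2 or Cyp3 and a letter, with Ugt1 or Ugt2, or with Fmo and a digit, or if the symbol was Por. The rat gene that the annotation prints as Cyp3a23-3a1 counted as 1 symbol. The rule used names alone and no measured value. It found 69 probe sets of 39 genes among the 8799 probe sets of the first array design and 41 probe sets of 38 genes among the 15923 of the second. A further 23 and 5 probe sets carried a member's symbol beside others and were left out.

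The study measured total RNA from rat liver on 91 arrays in 2 time courses of Wistar rats labelled with 50 mg/kg methylprednisolone. The short course held 4 control arrays, titled Ctr, and 43 arrays at 16 times from 0.25 to 72 h, with 2 arrays at 2, 5, 12, 30 and 72 h and 3 at the other times. The long course held 4 control arrays and 4 arrays at each of 6, 10, 13, 18, 24, 36, 48, 72, 96 and 168 h, on the second array design. The controls are described as time 0 under the same treatment wording. The labels name neither a vehicle, a route nor a schedule of dosing, and they do not give the age or sex of the animals. They also do not say that arrays of a time are separate animals, so the p-values below measure the spread between arrays.

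A P450 enzyme is a heme protein of the endoplasmic reticulum that puts an oxygen atom into drugs, steroids and fatty acids, and it can do so only while Por passes it electrons from NADPH. Flavin-containing monooxygenases oxidise nitrogen and sulfur atoms of drugs without that partner, and UDP-glucuronosyltransferases then attach glucuronic acid so that the product can leave in bile or urine. In rat liver several Cyp2 and Cyp3a genes are also predominant in one sex, under the control of the pattern of growth hormone secretion, and the receptors AhR, CAR and PXR raise particular members when their ligands are present.

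The 250 bases before the RefSeq start of 5 members are printed because the results turn on them: Por had the clearest rise, Fmo1 stood on opposite sides of its controls in the courses, Cyp2c11 and Cyp2c12 are the textbook male-predominant and female-predominant members, and Cyp2c23 fell in both courses. Each sequence runs 5' to 3' on the gene's strand in build GRCr8. The start is the one that the RefSeq sequence table gives for the gene, with no transcript named, and the windows of Por and Cyp2c12 lie wholly, and that of Cyp2c23 in part, inside the gene's annotated span. The windows are chr12:26635810-26636059 on the minus strand for Por, chr13:77747667-77747916 on the minus strand for Fmo1, chr1:246174966-246175215 on the plus strand for Cyp2c11, chr1:248677035-248677284 on the minus strand for Cyp2c12, and chr1:252863068-252863317 on the minus strand for Cyp2c23. Capitals mark matches of the 3 short motifs described after the sequences, none of which overlaps another in these windows, and the Cyp2c23 window holds none.
Por: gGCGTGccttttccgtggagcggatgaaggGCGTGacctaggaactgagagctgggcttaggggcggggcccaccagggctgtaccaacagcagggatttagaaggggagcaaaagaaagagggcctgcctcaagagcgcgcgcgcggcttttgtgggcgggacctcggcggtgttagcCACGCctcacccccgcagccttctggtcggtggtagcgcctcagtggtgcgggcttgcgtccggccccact
Fmo1: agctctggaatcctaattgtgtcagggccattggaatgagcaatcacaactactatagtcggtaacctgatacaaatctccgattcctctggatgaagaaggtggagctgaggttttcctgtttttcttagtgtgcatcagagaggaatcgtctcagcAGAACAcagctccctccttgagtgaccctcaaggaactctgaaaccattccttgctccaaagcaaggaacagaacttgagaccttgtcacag
Cyp2c11: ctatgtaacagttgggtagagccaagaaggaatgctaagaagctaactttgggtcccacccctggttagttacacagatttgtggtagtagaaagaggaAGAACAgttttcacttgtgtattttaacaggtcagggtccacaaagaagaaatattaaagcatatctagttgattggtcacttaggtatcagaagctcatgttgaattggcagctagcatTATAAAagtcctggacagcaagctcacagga
Cyp2c12: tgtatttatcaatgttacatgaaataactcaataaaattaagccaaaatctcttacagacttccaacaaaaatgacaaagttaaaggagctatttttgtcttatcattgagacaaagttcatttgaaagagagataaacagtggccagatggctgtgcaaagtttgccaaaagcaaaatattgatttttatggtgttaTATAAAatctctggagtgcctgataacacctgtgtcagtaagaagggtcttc
Cyp2c23: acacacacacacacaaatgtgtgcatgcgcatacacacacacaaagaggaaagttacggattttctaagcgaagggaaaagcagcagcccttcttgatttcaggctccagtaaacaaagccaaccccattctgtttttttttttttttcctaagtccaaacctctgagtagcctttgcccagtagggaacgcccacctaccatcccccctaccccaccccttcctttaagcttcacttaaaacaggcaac
Of the 43 member genes in either array table, 37 had such a sequence, and the search covered both strands. The half-site of the glucocorticoid receptor, AGAACA, stood in 7 of the 37 member windows (18.9%) and in 17.1% of all 27457 windows of the same length. The core of AhR sites, GCGTG, stood in 4 (10.8%) and in 27.2% of all. The third run of capitals in the Por window is that core on the opposite strand. The TATA box, TATAAA, stood in 11 (29.7%) and in 13.1% of all. A match describes letters in a window and is not a binding site.

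Signals are linear intensities, scaled by the authors. A change is the difference of mean log2(signal + 32) from the controls of the same course, so it understates the change of dim probe sets. A gene is represented by its brightest tested probe set, and "past the threshold" means an adjusted p under 0.05 over all probe sets of that table. The filter on low signal left 35 genes to test in each course. Cyp2a3 and Cyp2b12 failed it in both, Cyp1a1 and Cyp2g1 in the short and Cyp2b21 in the long course. The files hold no detection calls, so a low signal does not show whether a transcript was there. Many members are near-identical copies of one another and several probe sets were designed to match more than 1 transcript, so a value may hold signal of a neighbouring gene of the family. In whole liver, fewer cells of a type and less RNA per cell cannot be told apart.

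The liver label was checked on hepatocyte markers, of which 6 of 7 were in each table. Their summed signals ran from 35227 to 179683 in the short and from 40382 to 108794 in the long course. The short sums hide low readings, since Alb ran from 0.152 to 34341.5 and Ahsg from 368 to 30705. The other short markers never read under 4680. Of the kidney and gut markers, Umod averaged 385 and Fabp2 87.3 on the short design (signal percentiles 61.2 and 29.3). On the long design they averaged 11.3 and 41.3 (percentiles 8.2 and 34.1). Between arrays of a course, the mean correlation of an array with the others ran from 0.865 to 0.929 and from 0.887 to 0.941. It lay under 0.9 in 9 short arrays, among them 2 of the 4 controls and 4 of the 17 arrays at 4-8 h, and in 1 long array. Spiked-in bacterial control transcripts were high in 15 of the 44 long arrays, namely 1 of 4 controls, 4 of 16 at 6-18 h, 4 of 12 at 24-48 h and 6 of 12 at 72-168 h. The 3' over 5' log2 difference of the GAPDH control probes, a sign of RNA quality, had medians of 0.08 in the long controls, 0.15 at 6-18 h, 0.26 at 24-48 h and 0.34 at 72-168 h. The short controls stood at 0.18, against -0.02 at 4-8 h. The part of these differences in the results below was not tested beyond the alternatives given beside each.

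Early in the short course Por rose and a group of P450, Fmo and Ugt genes fell, and no member was past the threshold in the windows from 12 h on. At 4-8 h, 16 of 58 member probe sets were past the threshold, all 3 of Por higher and 13 lower (22.4%). Over all 6118 tested probe sets 27% passed, 16.4% higher and 10.5% lower. The median log2 change was -0.34 over the members and 0.10 over all probe sets tested. The 6 hepatocyte markers had a median of -0.32 there, with Apoa1 lower (-0.39, adjusted p = 0.021) and the other 5 not past the threshold, and of -0.81 with none past it at 0.25-0.75 h. Their summed signal had a median of 112661 in the controls, 47018 at 0.25-0.75 h and 75118 at 4-8 h, and its part in the members' changes was not tested. After centring each array on its median, that background median became -0.01 and 17 members were lower, and after quantile normalization it became 0.03 and 11 were lower. Counted by gene, 1 of 35 was higher and 8 lower, or 7 without Ugt1a9-ps, which passed the signal filter only through its other groups. Without the 9 arrays of low correlation the members past the threshold were the 3 of Por alone, with none lower. Earlier, 2 member probe sets were lower at 0.25-0.75 h (3.42% of all passed) and 3 at 1-2 h (12.2% of all). At 12-18 h and 30-72 h limma called 0 members (0.997% and 0.0981% of all), against 9 and 3 at an unadjusted p under 0.05. Comparing 30-72 h with 4-8 h directly, 30 members were higher and 4 lower, where 36.7% of all probe sets passed, 15.2% higher and 21.5% lower. Without the arrays of low correlation that count was 18 higher and 4 lower. Over the whole course, 20 of 58 members (34.5%) passed the F test over all times, against 33.6% of all probe sets.

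Most members called in the long course were higher than their controls, and more were called in the windows from 24 h on than at 6-18 h. At 6-18 h 4 of 38 member probe sets were past the threshold, all higher. Of all 11106 probe sets 9.31% passed there, 4.64% higher and 4.67% lower. At 24-48 h 12 were higher and 1 lower (5.23% of all, 2.61% higher and 2.62% lower). At 72-168 h 8 were higher and 3 lower (10.8% of all, 4.81% higher and 6.01% lower). Without probe sets whose controls averaged under the filter's limit, Cyp1a1 and the second of Cyp2d4, 10 and 7 were higher. The median log2 change of the members was 0.24 in both of these windows, against -0.04 and -0.03 over all probe sets tested. By gene, 9 of 35 were higher, or 8 without Cyp1a1, and 1 lower at 24-48 h, and 5 rose and 3 fell at 72-168 h. The F test over all times called 23 of 38 members (60.5%), against 23.8% of all probe sets. Between 72-168 h and 6-18 h 11 members were higher and 4 lower (39.5%), where 21.2% of all passed. Leaving out control replicate 2 took the 24-48 h count from 13 to 8. With the 29 arrays of low spike-in signal alone the counts were 4, 14 and 12 in the 3 windows, and with the 15 arrays of high signal alone, which hold 1 control, they were 0 in each.

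**Figure D1:**
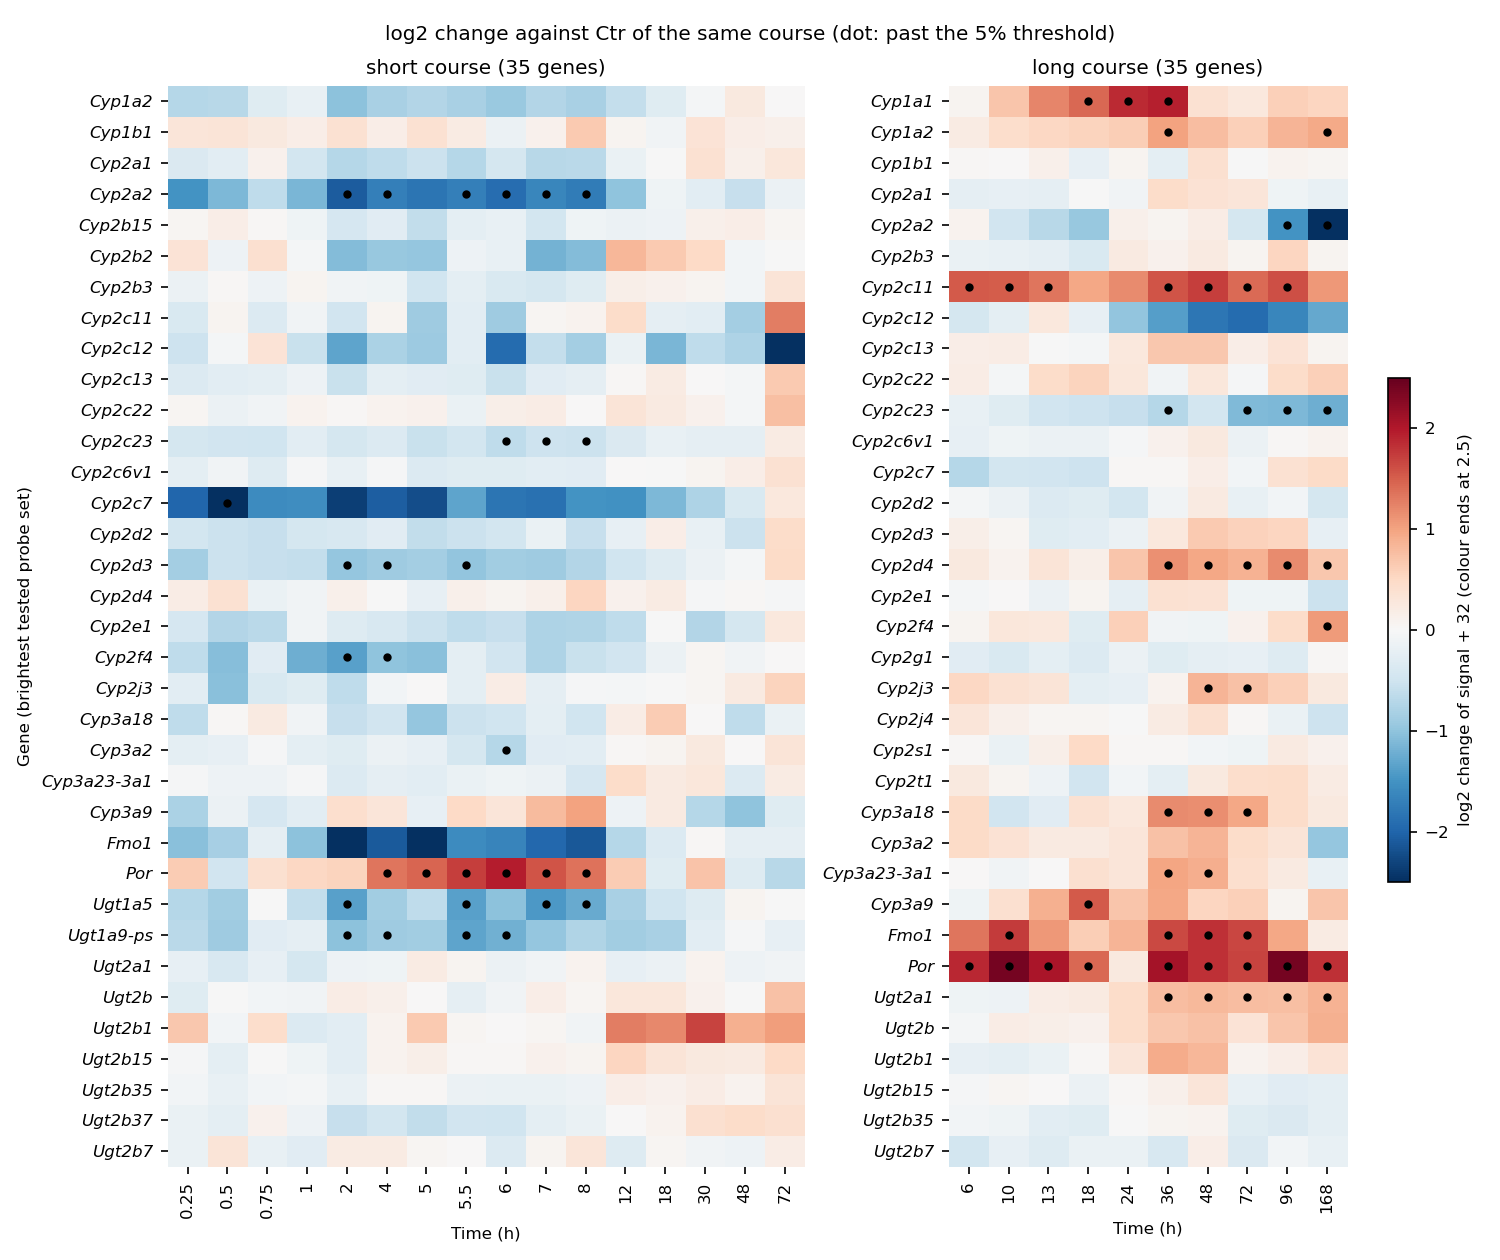
Colour map of the log2 change of signal + 32 against the controls of the same course, for the 35 tested genes of each course (rows, brightest probe set) at every time (columns, in h). Red is higher and blue lower, colours end at a change of 2.5, and a dot marks an adjusted p under 0.05. Dots in the short course lie between 0.5 and 8 h and are blue except for Por, and dots in the long course are mostly red from 36 h on.

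Por, NADPH-cytochrome P450 reductase, rose in both courses. Its short control arrays read 1699.7, 1631, 1574 and 1648, and the 17 arrays at 4-8 h ran from 3263 over a median of 4944 to 6742. No array of that window overlapped the controls. The log2 change was 1.57 (SE 0.23, adjusted p = 1.01e-05, 2.96-fold), with 17 of 17 arrays above the control mean. Each of the 6 times of the window passed by itself, from 1.35 at 4 h up to 1.96 at 6 h and back to 1.35 at 8 h. The other Por probe sets gave 2.01 (adjusted p = 2.14e-07) and 1.15 (adjusted p = 1.16e-04). At 0.25 h 1 of the 3 arrays read 6171 while the other two read 1280.0 and 2109, and that time was not past the threshold. By 30-72 h the arrays ran from 808 over 1264 to 2852, a change of -0.11 that was not past the threshold, and they were lower than at 4-8 h by a log2 difference of -1.67 (SE 0.19, adjusted p = 3.75e-08, 7 of 7 arrays).

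The long course showed a rise of Por with a gap at 24 h. The control arrays read 331, 277, 169 and 188. The 16 arrays at 6-18 h ran from 289 over 1083 to 1754, and only 18 h replicate 3, at 289, lay within the range of the controls. The log2 change was 1.93 (SE 0.32, adjusted p = 9.52e-05, 16 of 16 arrays). The arrays at 24 h read 224, 479, 258 and 221, of which 3 lay within the control range, and the change of 0.24 was not past the threshold. All other times passed, with the largest change at 96 h (2.40, arrays at 1183, 683, 3225 and 1335). The 72-168 h window stood at 1.97 (SE 0.33, adjusted p = 5.57e-05, 12 of 12 arrays), and against 6-18 h the difference was 0.04. The other probe set gave 2.07, 1.23 and 1.90 in the 3 windows, each past the threshold. Por also kept its call under every alternative of both courses except the set of high spike-in arrays, which holds 1 control.

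**Figure D2:**
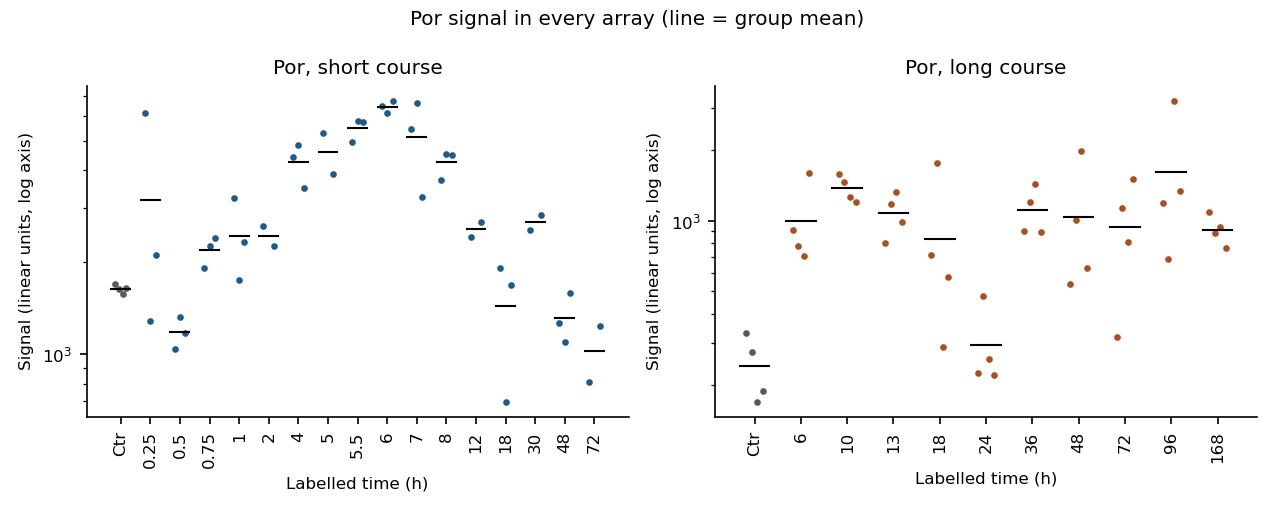
Signal of the brightest Por probe set in every array (points, log axis, linear intensity units) by labelled time in h, with the group mean as a line and controls in grey. In the short course the arrays at 4-8 h sit between 3263 and 6742, above the controls at 1574 to 1699.7, and in the long course the arrays at 24 h fall back to 221 to 479.

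Of the Cyp1 genes, which oxidise planar aromatic compounds and are the classical targets of AhR, Cyp1a1 and Cyp1a2 were called in the long course. Cyp1a1 read 7.75, 9.05, 3.87 and 8.36 in the controls and 103, 259.8, 82.3 and 80.5 at 36 h, so that these groups did not overlap. At 24-48 h the log2 change was 1.40 (SE 0.33, adjusted p = 0.00629, 10 of 12 arrays), and the single times 18, 24 and 36 h passed (1.43, 1.86 and 1.94). At 48 h 1 array read 81.9 and the other three read 9.97, 6.03 and 5.73. The controls averaged 7.26, below the signal filter's limit of 35.7, so Cyp1a1 was tested only because of its treated arrays and its call is given as a description. On the short design Cyp1a1 failed the filter, with controls from 19.9 to 36.2 and a highest array of 180 at 18 h.

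Cyp1a2, the caffeine-oxidising enzyme of the liver, had long controls at 2692, 1842, 2667 and 2636 and arrays from 1663 over 4416 to 8472 at 24-48 h. The change was 0.80 in both later windows (SE 0.25, adjusted p = 0.046 and 0.0278), with 11 and then 12 of 12 arrays above the control mean. These calls were lost when control replicate 2 was left out (0.67 in both, adjusted p = 0.213 and 0.138) and in the low spike-in arrays alone (0.64 and 0.69, adjusted p = 0.108 and 0.0841). Short controls of Cyp1a2 ran from 2115 to 8654 and the change at 4-8 h was -0.81 (adjusted p = 0.0815), with a later difference of 0.87 between 30-72 h and 4-8 h (adjusted p = 0.0157) that was lost without the arrays of low correlation (0.64, adjusted p = 0.109). Cyp1b1 was past the threshold in no window of either course.

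Cyp2a2, a steroid hydroxylase predominant in male rats, had the lowest adjusted p at 4-8 h of the short course among the brightest Cyp2 probe sets. Its controls read 5565, 2741, 5502 and 7345. The arrays at 1 and 2 h read 3371, 1233, 2737, 1032 and 1306, and those at 4-8 h ran from 522 over 1765 to 2941, so only control replicate 2 was reached by the window. The log2 change was -1.60 at 1-2 h (SE 0.46, adjusted p = 0.0199) and -1.76 at 4-8 h (SE 0.38, adjusted p = 7.78e-04, 17 of 17 arrays below the control mean). At 30-72 h the arrays were back at 2745 to 5884 and stood above 4-8 h by 1.43 (SE 0.31, adjusted p = 4.22e-04). The 4 lowest arrays of the window were 6 h replicate 1 (522), 7 h replicate 3 (534), 5 h replicate 2 (642) and 8 h replicate 3 (867), of which the last 3 are among the arrays of low correlation. Without such arrays the change was -1.23 and no longer past the threshold (adjusted p = 0.0955).

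Cyp2a2 fell late in the long course. The controls read 1553, 777, 612 and 1891, the 24-48 h arrays ran from 763 over 1258 to 1779, and the 168 h arrays read 339, 23.2, 84.4 and 417, all below every control. The change was 0.13 at 24-48 h and -1.52 at 72-168 h (SE 0.33, adjusted p = 0.0012, 12 of 12 arrays), with -1.5 at 96 h and -2.63 at 168 h (adjusted p = 1.57e-05). Against 6-18 h the difference was -1.02 (adjusted p = 5.89e-04). In the low spike-in arrays alone the 72-168 h change was -0.72 (adjusted p = 0.116). Cyp2a1, the female-predominant member of that subfamily, was past the threshold only between 30-72 h and 4-8 h of the short course (0.88, adjusted p = 6.01e-04).

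The Cyp2b genes, the family that phenobarbital raises through CAR, gave no gene call against the controls. The brightest probe set of Cyp2b3 stood at 7534 to 14140 in the short controls and gave -0.33 at 4-8 h (adjusted p = 0.135). Its dimmer probe sets were lower, by -0.98 (adjusted p = 0.00184, controls 5541, 3931, 5396 and 5358 against a window of 867 over 2589.7 to 3834) and by -1.30 (adjusted p = 0.00948). The dimmest of them also read 1533 to 2179 at 12-18 h against 332 to 798 in the controls, a change of 1.64 with an adjusted p of 0.0676. Cyp2b2 and Cyp2b15 differed only between 30-72 h and 4-8 h (0.88 and 0.43, adjusted p = 0.0276 and 0.0174), as Cyp2b3 did there in its brightest set (0.43, adjusted p = 0.0102), and all 3 differences were lost without the arrays of low correlation. On the long design Cyp2b3 was higher at 72-168 h than at 6-18 h by 0.46 (adjusted p = 0.00332).

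Cyp2c23, the arachidonic acid epoxygenase of rat liver and kidney, was lower in both courses. Short controls read 13000.1, 16885, 21933 and 18695 and the 4-8 h arrays ran from 10487 over 11772 to 15332, overlapping only control replicate 1. The change was -0.47 at 0.25-0.75 h (adjusted p = 0.0357) and -0.51 at 4-8 h (SE 0.12, adjusted p = 0.00174, 17 of 17 arrays). A second bright probe set gave -0.89 at 4-8 h (adjusted p = 7.60e-04), while a dim one was not past the threshold. The 4-8 h change of the brightest set was -0.52 without the arrays of low correlation (adjusted p = 0.062) and -0.27 after quantile normalization (adjusted p = 0.0598), and the early call was lost without control replicate 3 (-0.35, adjusted p = 0.247). Long controls of Cyp2c23 read 4912, 3873, 4604 and 5408 and the 72-168 h arrays ran from 1019 over 2253 to 3043, all below every control. The change deepened from -0.37 at 6-18 h (not past) to -0.58 at 24-48 h (adjusted p = 0.037) and -1.15 at 72-168 h (SE 0.17, adjusted p = 8.42e-06, 12 of 12 arrays), and the difference between the last and the first of these windows was -0.78 (adjusted p = 3.22e-06).

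Cyp2c11, the main male-predominant P450 of rat liver, rose in the long course against controls that spread widely, at 519, 2505, 1261 and 5752. The later arrays ran from 2195 over 4453 to 6534 at 6-18 h and from 1703 over 4794 to 8583 at 72-168 h, so that control replicates 2 and 4 lay inside both ranges. The changes were 1.34, 1.5 and 1.37 in the 3 windows (SE 0.32, 0.33 and 0.33, adjusted p = 0.00487, 0.0036 and 0.00381). Without control replicate 1 they were 0.77, 0.93 and 0.80 and no longer past the threshold (adjusted p = 0.144, 0.0914 and 0.117). Its short controls ran from 1090.0 to 16166 and no window was past the threshold, with -0.31 at 4-8 h (SE 0.59).

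Cyp2c12, the female-predominant steroid sulfate hydroxylase, was lower late in the long course. Its controls read 1398, 2573, 628 and 168 and the 72-168 h arrays ran from 63.1 over 195 to 1578. The change was -1.61 (SE 0.54, adjusted p = 0.0449, 10 of 12 arrays) and the difference from 6-18 h was -1.45 (adjusted p = 0.00245). The call against the controls was lost under several alternatives, down to -1.06 without control replicate 2 (adjusted p = 0.297), and with the spike-in level as a block it was -1.45 (adjusted p = 0.0649). The controls of Cyp2c11 and Cyp2c12 stood at opposite ends in 1 array of each course. Short control replicate 2 read lowest for Cyp2c11, at 1090.0, and highest for Cyp2c12, at 4615, where the other controls of Cyp2c12 read 556, 1281 and 1117. Long control replicate 4 read highest for Cyp2c11 and lowest for Cyp2c12. The other ends did not match, since Cyp2c11 was highest in short replicate 4 and lowest in long replicate 1, and Cyp2c12 lowest in short replicate 1 and highest in long replicate 2.

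**Figure D3:**
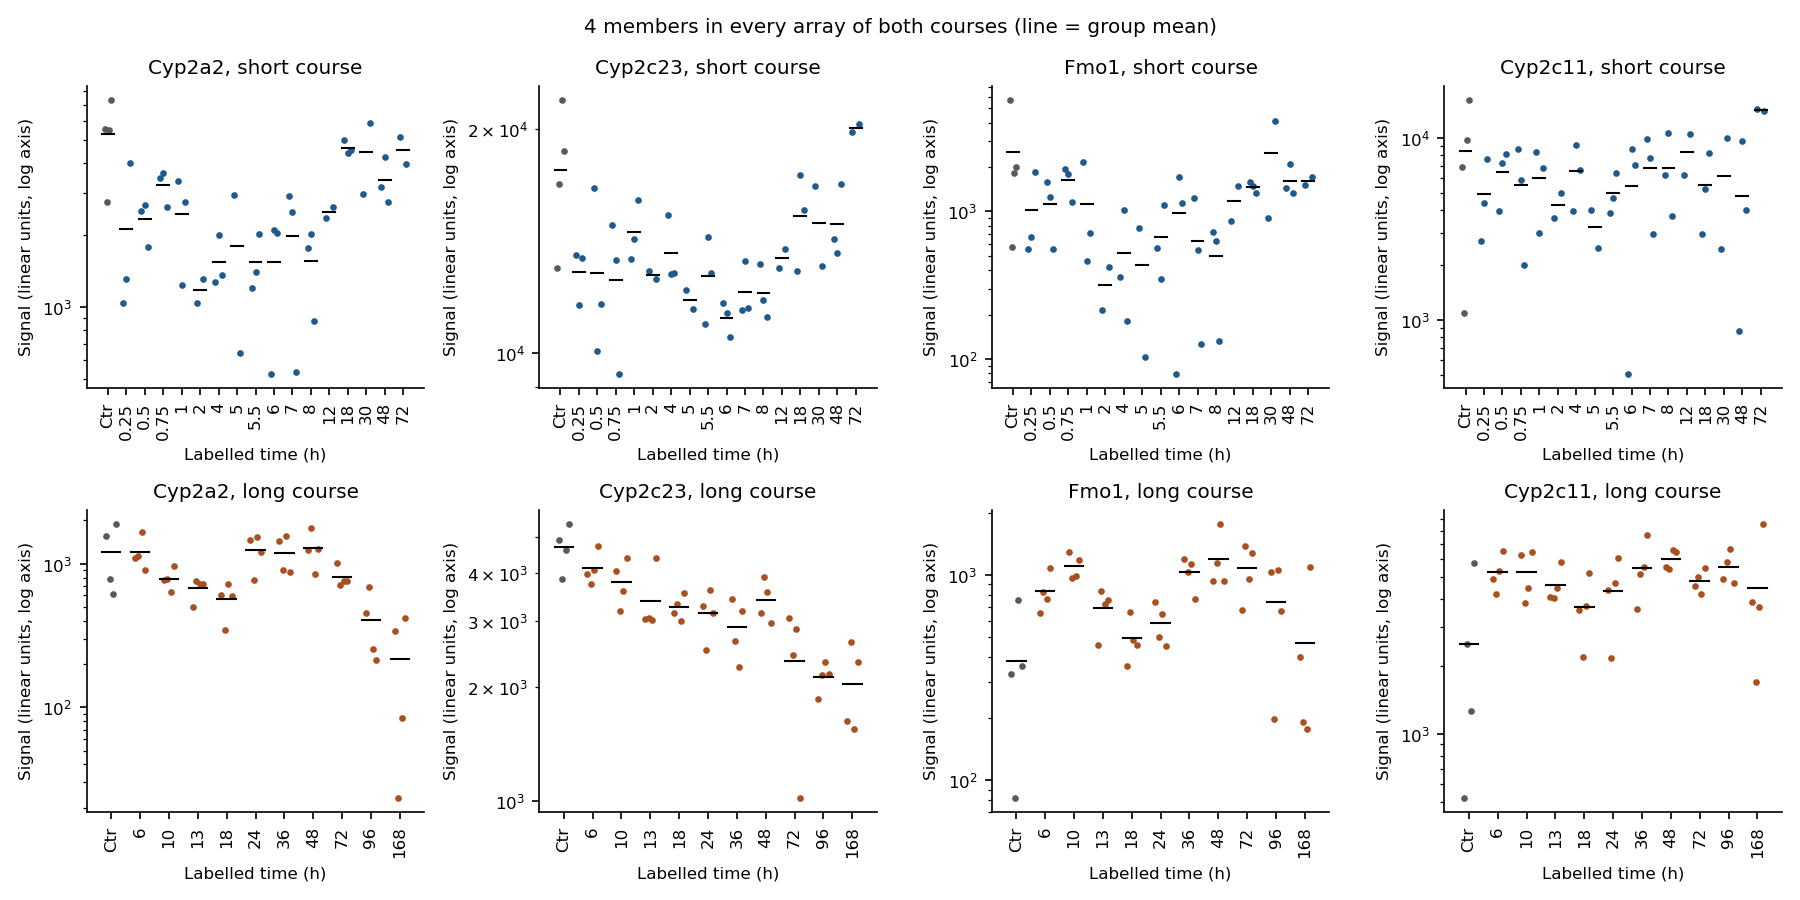
Signal of Cyp2a2, Cyp2c23, Fmo1 and Cyp2c11 in every array (points, log axis, linear intensity units) by labelled time in h, with group means as lines and controls in grey, the short course above and the long course below. Cyp2a2 is lowest at 2 to 8 h above (522 to 2941 at 4-8 h) and at 168 h below (23.2 to 417). The group means of Fmo1 lie under its control mean at 4-8 h above and over it at 6-18 h below.

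Among the remaining Cyp2c genes, Cyp2c7, a retinoid and steroid hydroxylase, had short controls at 11477, 13421, 10002 and 7059 and a wide 4-8 h window from 290.1 over 4503 to 11785. The change was -1.80 (SE 0.67, adjusted p = 0.0442, 16 of 17 arrays) and it was lost on leaving out any of 10 single arrays, all 4 controls among them, or the arrays of low correlation (-0.95, adjusted p = 0.453). At 0.5 h it was -3.19 (adjusted p = 0.0253). Cyp2c7 differed in the long course between 72-168 h and 6-18 h (0.80, adjusted p = 4.82e-04). Cyp2c6v1, one of the brightest members, had short controls at 10304, 12227, 10969.9 and 12085 and 30-72 h arrays from 10369 over 13625 to 15761. It passed the F test (adjusted p = 0.0103) and differed between 30-72 h and 4-8 h (0.45, adjusted p = 3.39e-05), and its second probe set was lower at 0.25-0.75 h and 4-8 h (-0.76 and -0.65, adjusted p = 0.0209 and 0.00525). Cyp2c13, a male-predominant gene with short controls at 10144, 11746, 16939.6 and 19785, showed the same difference between the windows (0.52, adjusted p = 0.00109) and no call against the controls. Cyp2c22 was past the threshold nowhere.

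Of the Cyp2d genes, relatives of the human debrisoquine hydroxylase, Cyp2d3 and Cyp2d4 were called against the controls, each in 1 course. Cyp2d3 fell in the short course, with controls at 7623, 5057, 6513 and 8906 and 4-8 h arrays from 2312 over 4222 to 5446, which reached control replicate 2 alone. The change was -0.79 at 1-2 h (adjusted p = 0.0441) and -0.86 at 4-8 h (SE 0.21, adjusted p = 0.00291, 17 of 17 arrays), and 30-72 h stood above 4-8 h by 0.95 (adjusted p = 6.02e-05). Without the arrays of low correlation the 4-8 h change was -0.71 (adjusted p = 0.172), and the 1-2 h call was lost on leaving out any 1 of 7 arrays. On the long design Cyp2d3 had controls at 1955, 1434, 2983 and 1619.7 and 72-168 h arrays from 1118 over 2536 to 4616. It was called over all times and between 72-168 h and 6-18 h (0.40, adjusted p = 0.011), not against the controls.

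Cyp2d4, the member also known from brain, rose in the long course. Its controls read 163, 158, 199 and 155, the 24-48 h arrays ran from 199 over 354 to 530.1 and the 72-168 h arrays from 244 over 335 to 664, with the later window wholly above the controls. The changes were 0.93 and 0.91 (SE 0.17 each, adjusted p = 2.77e-04 and 1.86e-04, 12 of 12 arrays in both). The second probe set had a control mean of 17.7, under the signal filter's limit of 35.7, so it was tested only because of its treated arrays and its changes of 0.81 and 1.11 are a description. In the short course no window was past the threshold, and whether the courses differ was not tested, since they were measured on different array designs. Cyp2d2 was past the threshold in neither course.

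Cyp2e1, the ethanol-oxidising P450, was lower at 4-8 h of the short course by -0.61 (SE 0.21, adjusted p = 0.0262, 17 of 17 arrays). Its controls read 9803, 15167, 32462 and 18683 against 7078 over 11190.2 to 16738, and without control replicate 3, the highest, the change was -0.31 (adjusted p = 0.329). The dimmest tested probe set of Cyp2e1 gave -0.63 (adjusted p = 0.00486). The one of middle brightness was not past the threshold at 4-8 h. Its controls read 6537, 9430.5, 27158 and 19301, a range that held all its 4-8 h arrays (9530 to 16219.5). The probe sets of Cyp2e1 therefore did not all give the same call. Cyp2f4, a lung-type P450 that activates naphthalene, was lower at 1-2 h among the windows, where its 5 arrays read 827, 370.2, 711, 539 and 543 against controls at 2709, 1198, 1002 and 1318, without overlap. The change was -1.29 (SE 0.32, adjusted p = 0.00872), and -0.99 without control replicate 1 (adjusted p = 0.0516) or -1.09 without the arrays of low correlation (adjusted p = 0.162). Cyp2f4 was higher at 168 h in the long course (1.06, adjusted p = 0.0207), where its arrays read 1262, 378, 915 and 347. The long controls read 312, 128, 500 and 310, so only replicates 1 and 3 at 168 h lay above all of them. The 72-168 h window was not past the threshold (0.54, adjusted p = 0.166).

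Cyp2j3, an epoxygenase better known from heart, had long controls at 352, 145, 392 and 511 and was higher at 48 h (0.84, adjusted p = 0.0249) and 72 h (0.74, adjusted p = 0.0423), while its window change of 0.52 at 72-168 h, with arrays from 298 over 525 to 645, was not past the threshold. Cyp2j4 and Cyp2t1 were called between the late and the early window of the long course, by -0.35 and 0.44 (adjusted p = 0.0149 and 0.00381). Cyp2g1 and Cyp2s1 were tested in the long course and not called.

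Of the Cyp3a genes, the steroid and drug oxidases that PXR raises, Cyp3a18 and Cyp3a23-3a1 were called at 24-48 h of the long course, and Cyp3a2 was called nowhere in it. Cyp3a18, a male-predominant gene, had controls at 2661, 3273, 2214 and 886 and 24-48 h arrays from 1489 over 4226 to 5784. The change was 0.87 (SE 0.25, adjusted p = 0.0265, 11 of 12 arrays), made up of 1.18 at 36 h and 1.15 at 48 h with no call at 24 h. It was 0.48 without control replicate 4, the lowest (adjusted p = 0.311), and 0.57 in the low spike-in arrays alone (adjusted p = 0.133). Cyp3a23-3a1, the classical dexamethasone-inducible P450 of the rat, had controls at 3019.8, 2466, 4092 and 2266 and 24-48 h arrays from 3025 over 4989 to 7584. The change was 0.74 (SE 0.20, adjusted p = 0.0164, 12 of 12 arrays), and 0.66 and 0.62 without control replicate 2 or 4 (adjusted p = 0.0921 and 0.0973). By 72-168 h it was 0.15 and no longer past the threshold.

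The brightest short-course probe set of Cyp3a23-3a1 was past the threshold in no window, while a dimmer one read 6101, 7449.9 and 2964 at 18 h against 2181, 1650.5, 1235 and 1839 in the controls. That was a change of 1.58 (adjusted p = 0.0116) and the only member call at 18 h, where 0.376% of all probe sets passed. Another dimmer set passed the F test (adjusted p = 0.0385). It read 10564, 14270 and 10699 at 18 h against controls at 7051, 5360, 4582 and 5210. The dimmest did not pass that test (adjusted p = 0.0641) and read 4152, 4295 and 1314 against 1315, 917, 572 and 832. Cyp3a18 passed the F test of the short course (adjusted p = 0.0439) with no call in a window. Cyp3a2, the male-predominant testosterone hydroxylase, was lower at 6 h (-0.71, adjusted p = 0.0303), where its arrays read 3822, 8815 and 9012. Its controls read 11107, 6993, 13008 and 14755, so only 6 h replicate 1 lay below all of them. Between 30-72 h and 4-8 h Cyp3a2 differed by 0.54 (adjusted p = 0.00146). Cyp3a9, female-predominant, moved the other way between these windows (-1.13, SE 0.28, adjusted p = 0.00199, 7 of 7 arrays), and in the long course it was higher at 18 h (1.53, adjusted p = 0.0412), with arrays at 1745, 1612, 1212 and 764 against controls at 262, 1687, 602 and 99.4.

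**Figure D4:**
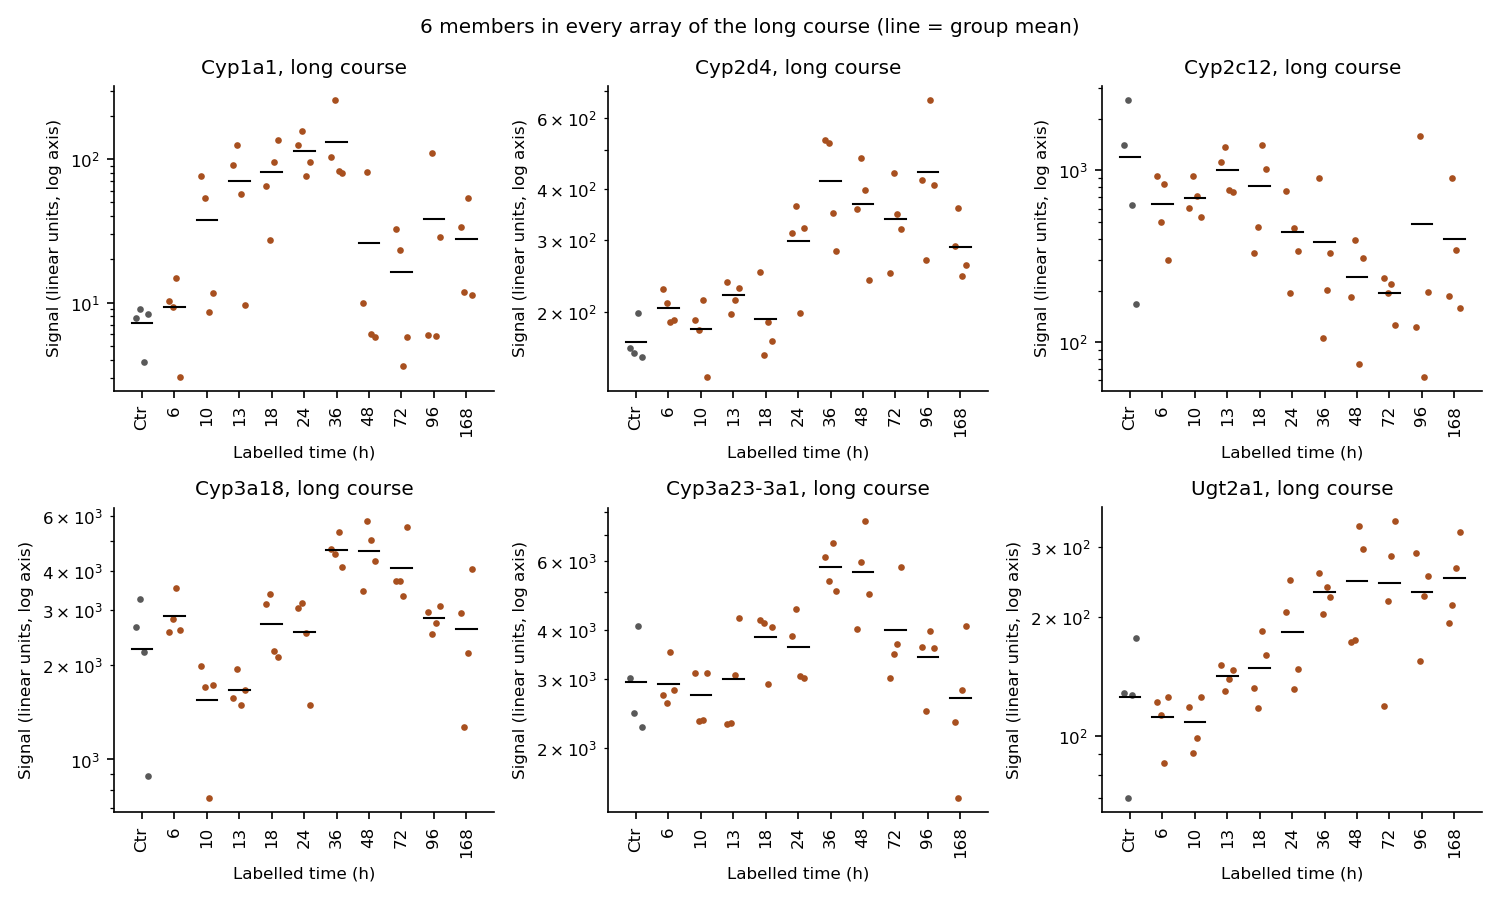
Signal of Cyp1a1, Cyp2d4, Cyp2c12, Cyp3a18, Cyp3a23-3a1 and Ugt2a1 in every array of the long course (points, log axis, linear intensity units) by labelled time in h, with group means as lines and controls in grey. Cyp1a1 climbs from controls at 3.87 to 9.05 up to 80.5 to 259.8 at 36 h and splits into 1 high and 3 low arrays at 48 h, while Cyp2d4 and Ugt2a1 stay high to 168 h.

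Fmo1, the flavin-containing monooxygenase of rat liver and kidney, lay on opposite sides of its controls in the courses. The short controls read 5713, 576, 1807 and 1998 and the 4-8 h arrays ran from 78.9 over 565 to 1706, so that control replicate 2 sat at the middle of the window. The change was -1.99 (SE 0.60, adjusted p = 0.0121, 17 of 17 arrays below the control mean), and 30-72 h stood above 4-8 h by 1.85 (adjusted p = 0.00294). The 5 lowest arrays were 6 h replicate 1 (78.9), 5 h replicate 2 (103), 7 h replicate 3 (125), 8 h replicate 3 (132) and 4 h replicate 3 (181), and all but the first are arrays of low correlation. Without such arrays the change was -0.66 (adjusted p = 0.649), and without control replicate 1 it was -1.46 (adjusted p = 0.1).

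The long Fmo1 controls read 331, 81.6, 754 and 359, and the arrays ran from 362 over 758 to 1298 at 6-18 h and from 451 over 936 to 1779 at 24-48 h. Both windows lay above 3 of the 4 controls. The changes were 1.20 and 1.44 (SE 0.34 and 0.35, adjusted p = 0.0176 and 0.00785), and 0.95 at 72-168 h was not past the threshold. At 6-18 h 16 of 16 and at 24-48 h 12 of 12 arrays lay above the control mean of the log2 values. Without control replicate 2, the lowest, they were 0.68 and 0.92 (adjusted p = 0.219 and 0.16). At the times that both courses sampled, 6, 18, 48 and 72 h, the short course gave Fmo1 changes of -1.64, -0.35, -0.23 and -0.22 and the long course 1.34, 0.61, 1.82 and 1.67. Por gave 1.96, -0.31, -0.33 and -0.70 in the short and 1.88, 1.43, 1.82 and 1.68 in the long course, and Cyp2a2 gave -1.90, -0.11, -0.58 and -0.15 and then 0.10, -0.95, 0.18 and -0.44. The courses used different array designs, were normalized separately and have controls of their own, so these values stand side by side without a test.

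The Ugt1 genes share their later exons and differ in the first, which sets the substrate. Only the short design had members with 1 symbol. Ugt1a5 had controls at 1336, 1002, 1548 and 2046 and 4-8 h arrays from 277 over 647 to 1181, and its change was -1.10 (SE 0.29, adjusted p = 0.00423, 17 of 17 arrays). The annotated pseudogene Ugt1a9-ps, a dim probe set just past the filter, had controls at 259.5, 93.8, 146 and 132 and arrays from 29.8 over 53.3 to 152, and its change was -1.0 (SE 0.23, 16 of 17 arrays). Its 4-8 h mean of 61.6 lay under the filter's limit of 91.2, so it was tested only because of its other groups and that value is a description. Ugt1a5 was higher again at 30-72 h than at 4-8 h (1.01, adjusted p = 8.92e-04), and Ugt1a9-ps stood 0.83 higher there. Without the arrays of low correlation the 4-8 h changes were -0.93 and -0.59 and neither was past the threshold (adjusted p = 0.16 and 0.296).

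The Ugt2 genes, which conjugate steroids and bile acids, gave no call against the controls among 7 tested genes of the short course. Ugt2b1 had controls at 2099, 342, 1783 and 1872 and 30-72 h arrays from 1511 over 3337 to 4651, a change of 1.21 with an adjusted p of 0.381, and it differed between 30-72 h and 4-8 h (1.08, adjusted p = 0.00194). Ugt2b37 and Ugt2b35 differed there too (0.83 and 0.29, adjusted p = 0.0013 and 0.00422). In the long course Ugt2a1, a form first known from nasal tissue, had controls at 129, 69.8, 128 and 177 and 24-48 h arrays from 131 over 215 to 340, all above 3 of the 4 controls. Its changes were 0.68 and 0.80 at 24-48 h and 72-168 h (SE 0.18 each, adjusted p = 0.0173 and 0.00236, 12 and 11 of 12 arrays), the first of them lost without control replicate 2 (0.49, adjusted p = 0.194). The dimmer probe set of Ugt2b had controls at 267, 149, 501 and 438 and read 481 over 861 to 1339 at 24-48 h and 528 over 967 to 1157 at 72-168 h. It rose by 1.43 and 1.46 (SE 0.22 each, adjusted p = 3.04e-05 and 8.42e-06, 12 of 12 arrays in both). The brighter probe set of that symbol, with controls from 2081 to 4631, gave 0.62 and 0.64 without passing (adjusted p = 0.165 and 0.102), so the probe sets of Ugt2b did not give the same call. Ugt2b1 and Ugt2b35 passed the F test of the long course with no call in a window, and Ugt2b15 and Ugt2b7 were called in neither course.

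**Figure D5:**
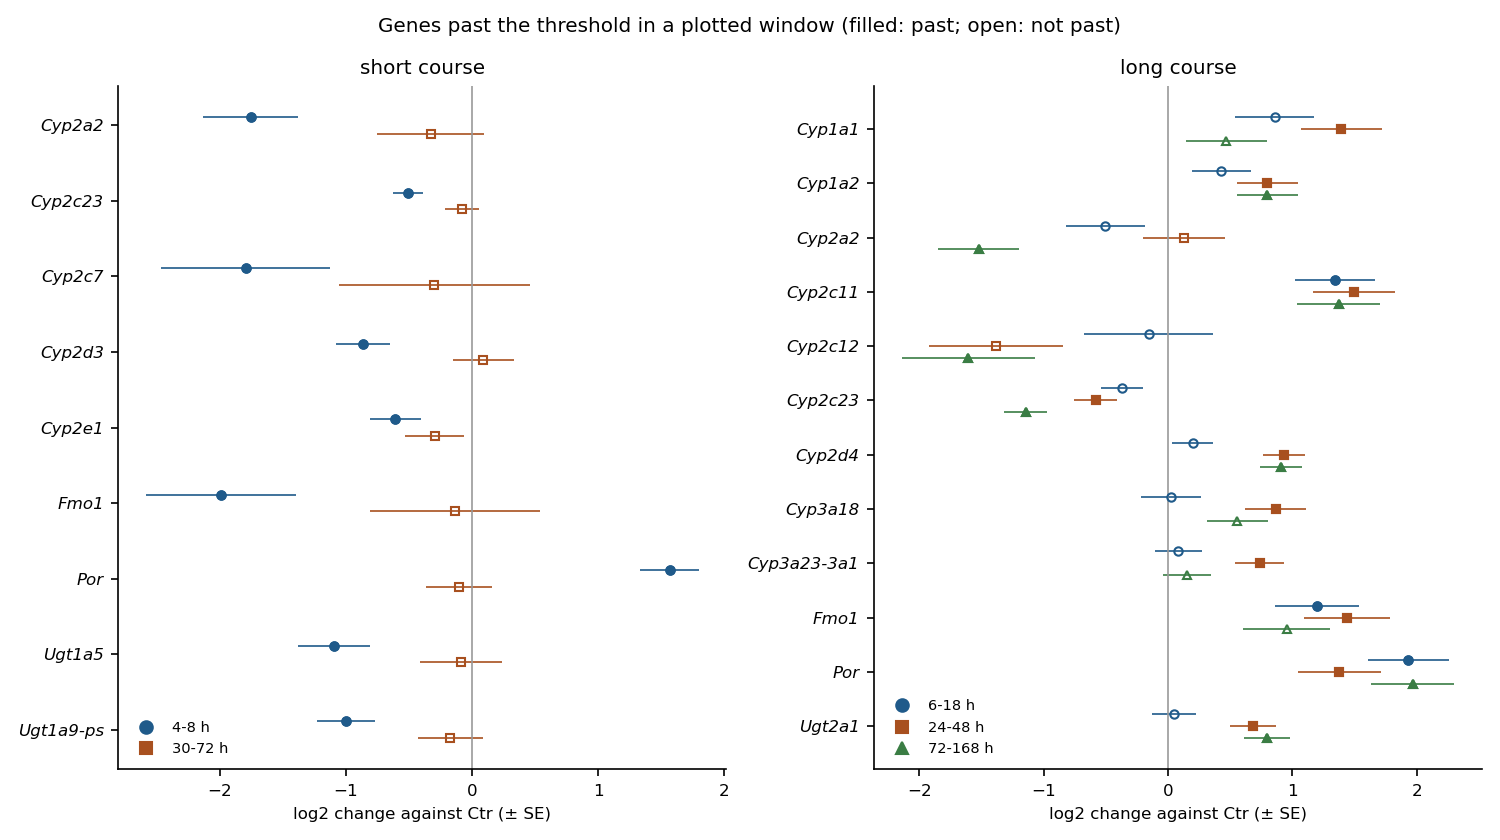
Log2 change against the controls (points, with SE bars) of the genes past the threshold in a plotted window, for the short course at 4-8 h and 30-72 h (left) and the long course at 6-18 h, 24-48 h and 72-168 h (right). Filled points are past the threshold and open ones are not. All 9 genes filled at 4-8 h are open at 30-72 h, and Por and Cyp2c11 are filled in all 3 long windows.

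The partners that P450 enzymes work with were read from fixed lists, as were the gene groups and cell markers that follow. Over all probe sets tested, the share past the threshold was 3.42% at 0.25-0.75 h, 12.2% at 1-2 h and 27% at 4-8 h of the short course. In the long course it was 9.31% at 6-18 h, 5.23% at 24-48 h and 10.8% at 72-168 h. Of 4 electron partners, Cyb5a (cytochrome b5), Cyb5r3 (its reductase) and Pgrmc1 fell at 4-8 h of the short course by -0.90, -1.11 and -0.37 (adjusted p = 0.0302, 0.00397 and 0.00756), and Cyb5b, the mitochondrial form, rose by 0.82 (adjusted p = 6.53e-04), with a list median of -0.64 against 0.10 over all probe sets. Cyb5b also rose in the long course, at 24-48 h and 72-168 h (0.57 and 0.75, adjusted p = 0.00341 and 5.14e-05) and the other three were not called against the controls. Of 6 measured genes of heme synthesis and breakdown, Hmox1, the heme oxygenase, rose in the short course, by 1.64 at 4-8 h (adjusted p = 3.48e-04) and in both earlier windows. Alad, Urod and Ppox, enzymes of heme synthesis, fell at 4-8 h (-2.12, -0.45 and -0.57, adjusted p = 5.15e-04, 0.01 and 0.0276). In the long course Alas1, the first enzyme of that pathway, rose at 6-18 h (0.69, adjusted p = 0.0309) and Alad fell there and at 72-168 h (-0.90 and -1.04, adjusted p = 0.0036 and 7.48e-04), with Blvra also lower at 72-168 h. Ephx1, the microsomal epoxide hydrolase, fell in the short course (-1.05 at 4-8 h, adjusted p = 3.73e-04) and in the long course (-1.30 and -2.25 at 24-48 h and 72-168 h, adjusted p = 0.0077 and 1.92e-06), while Ephx2 rose in the latter (0.81 and 0.66, adjusted p = 0.00859 and 0.024). Of the genes that supply UDP-glucuronate or hydrolyse glucuronides, Gusb fell at 6-18 h (-0.44, adjusted p = 0.0161) and Ugp2 at 72-168 h of the long course (-0.87, adjusted p = 0.00325). Of 5 tested transporters, the uptake carrier Slco1a4 fell in the short course (-1.09 at 4-8 h, adjusted p = 0.00931) and at 72-168 h of the long course (-1.74, adjusted p = 4.84e-04), where the exporter Abcc2 fell as well (-0.90, adjusted p = 0.00155).

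Among the regulators, Arnt, the partner of AhR, rose in the short course (0.74 at 4-8 h, adjusted p = 0.00851). Nr3c1, the glucocorticoid receptor, and Ghr, the growth hormone receptor, fell (-0.56 and -1.03, adjusted p = 0.0273 and 1.15e-04). That was 1 higher and 2 lower of 7 tested, where 16.4% of all probe sets were higher and 10.5% lower. Nr1i3, which encodes CAR, rose in the long course at 24-48 h and 72-168 h (0.84 and 1.31, adjusted p = 0.0036 and 2.85e-06). Nr1i2, which encodes PXR, rose at 72-168 h (0.57, adjusted p = 0.0106). These were 1 of 10 tested at 24-48 h and 2 of 10 at 72-168 h, where 5.23% and 10.8% of all probe sets passed. Of the AhR target list, 0 of 3 tested genes passed in the short course windows against the controls, and of 5 tested at 24-48 h of the long course (list median 0.16, against -0.04 over all probe sets) Cyp1a2 rose, with the limits given above, beside Cyp1a1, whose call is a description. Of the CAR and PXR target list, 0 of 7 genes passed by their brightest probe sets at 4-8 h of the short course (median -0.31), against 27% of all probe sets. Dimmer probe sets of Cyp2b3 and Cyp2c6v1 were lower there, as given above. Between 30-72 h and 4-8 h 6 of the 7 were higher, against 15.2% of all. Of these, the differences of Cyp2b2, Cyp2b3 and Cyp2b15 were lost without the arrays of low correlation. At 24-48 h of the long course 1 of 5, Cyp3a23-3a1, rose (median 0.19), against 5.23% of all, and Abcc2 was lower at 72-168 h. Of 5 genes predominant in male rats, Cyp2a2 fell at 1-2 h and 4-8 h of the short course, with the limits given above. The list medians were -0.33 and -0.34 against 0.06 and 0.10 over all probe sets, of which 12.2% and 27% passed. On the long design Cyp2c11 rose at 6-18 h, Cyp2c11 and Cyp3a18 at 24-48 h, and Cyp2c11 again at 72-168 h, where Cyp2a2 fell. The calls of Cyp2c11 and Cyp3a18 were each lost on leaving out a single control. Over all probe sets 9.31%, 5.23% and 10.8% passed in the 3 windows. The list medians in these windows were 0.07, 0.63 and 0.19, against -0.03, -0.04 and -0.03 over all. Of 4 predominant in females, Cyp2c7 fell at 4-8 h of the short course (list median -0.75, against 0.10 over all). Cyp2c12 fell at 72-168 h of the long course (list median 0.13, against -0.03 over all). Both calls were lost on leaving out any of several single arrays.

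Markers of other cells moved in the same windows. Both measured neutrophil markers of the short design, S100a8 and S100a9 of 5 listed, rose in the windows from 0.25 to 8 h (2.98 and 2.03 at 4-8 h, adjusted p = 9.16e-04 and 0.00178). Their summed signals ran from 106 to 606 in the controls, from 284 to 5935 in the 0.25-0.75 h window, from 1150.4 to 5769 in the next and from 499 to 4575 over 4-8 h. Of 2 measured Kupffer cell markers Clec4f fell at 4-8 h (-1.39, adjusted p = 0.00207), with sums of 3683 to 5443 in the controls and 3037 to 5270 at 4-8 h, and of 3 endothelial markers Kdr fell and Pecam1 rose. In the long course 4 of 4 measured Kupffer cell markers were lower at 24-48 h, with sums of 1605 to 1819 in the controls against 748 to 1105, and 2 of 4 at 72-168 h, with sums of 676 to 1946. Both erythroid markers measured were higher at 72-168 h than at 6-18 h, with sums of 306 to 3676 in the controls, 265 to 2320 at 6-18 h and 332 to 5291 at 72-168 h. Against the long controls, 1 of 1 tested cholangiocyte marker was lower at 6-18 h and at 72-168 h, and 0 of 4 stellate cell markers passed in any window. Ptprc, the only tested gene of the T and B cell list, was lower at 24-48 h and at 72-168 h. Cd3e, Cd3d and Cd79b of that list failed the signal filter, so a change of lymphocytes was not shown. Over 4-8 h of the short course 1 of 3 cholangiocyte markers was lower and 1 of 2 stellate cell markers was higher. Neither Cd79b nor Ptprc, the tested genes of the T and B cell list, passed there. No measured marker of these lists stood at 0 in all arrays, which without detection calls does not show that a transcript was there. The part of these cells in the members' changes was not tested.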

How the data were processed

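Liver RNA was measured on 2 Affymetrix array designs, a short course of 47 arrays and a long course of 44. The deposited values are linear intensities, one per probe set and array, which the authors had scaled to a common mean per array. That scaling was read from the values, and the scanner software is not given in the sources used here. Array short 6 h replicate 3 stood on a lower scale and was brought to the 2% trimmed mean of the others. The array titled long 96 h replicate 1 is described as 72 h, and the title was used. None of the 1081 and 946 array pairs held identical values, and 0 value columns lacked a sample.

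Control probe sets (59 and 57) and those below the 30th percentile of mean signal were left out, which left 6118 and 11106. After log2(signal + 32), limma 3.58.1 in R 4.3.3 (lmFit, eBayes with trend) was fitted over all arrays of a course. An F test covered all times, and contrasts set each time, and the unweighted mean of the times in a window, against the controls. P-values were adjusted by Benjamini-Hochberg over all tested probe sets at a threshold of 0.05, and the fit was tested on simulated data. Array values are given for the 10 genes of each course with the smallest F test p and for Por, and every gene with a called probe set is named. Other members and genes were named after their values were seen. The members and lists were chosen with earlier results of these data known.

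Arrays with the same replicate number had a median correlation of deviations of -0.0124 (short) and 0.0577 (long). These correlations ran from -0.625 to 0.77 and from -0.192 to 0.469, and the numbers were not used as pairs in the main fit. Replicate 4 of the long course had high spike-in signal in the controls and at every time, so its number is tied to that level. Gene symbols come from the arrays' platform annotation, which can be old, and promoter sequences from RefSeq on GRCr8. Alternatives varied the scaling, the added constant, the filter, array weights, a replicate block, the arrays left out, the spike-in level, the conflicting label and the probe set of a gene. The set of high spike-in arrays was added after seeing the data.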

Additional observations from a re-analysis of the deposited data

Results flagged for a closer look

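Among 120 groups of 4 arrays, 7 held an array whose gap to the others passed Dixon's limit, and chance gives about 1 in 20. Ugt2b1 read 342 in short control replicate 2, where the other controls read 1783 to 2099. Cyp2a2 read 502 in long 13 h replicate 1 against 716 to 752 in the rest, and 1006 in long 72 h replicate 1 against 709.9 to 754. Cyp2c23 read 4381 in long 13 h replicate 4 and 3022 to 3054 in the other arrays of that time. Cyp3a18 read 752 in long 10 h replicate 3 against 1706 to 1993. Cyp1a1 read 81.9 in long 48 h replicate 2 against 5.73 to 9.97. Cyp3a23-3a1 read 2911 in long 18 h replicate 3 against 4085 to 4239.

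Some genes differed between windows in a direct contrast past the threshold. In the short course, 30-72 h against 4-8 h, the log2 differences were 1.43 for Cyp2a2, 1.08 for Ugt2b1, 1.01 for Ugt1a5, 0.95 for Cyp2d3, 0.83 for Ugt1a9-ps (dim at 4-8 h, so a description), 0.67 for Cyp2f4, 0.52 for Cyp2c13, 0.45 for Cyp2c6v1 and 0.43 for Cyp2c23, and -1.67 for Por. In the long course, 72-168 h against 6-18 h, they were 0.75 for Ugt2a1, 0.71 for Cyp2d4, 0.53 for Cyp3a18 and 0.40 for Cyp2d3, and -1.02 for Cyp2a2 and -0.78 for Cyp2c23.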

How the results depend on the processing

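Of 68 gene calls, 43 kept their call whatever single array was left out and 25 did not, and the causes were not tested. The calls kept numbered 68 with a constant of 16 or 64, 66 after median centring, 62 each after quantile normalization, without a filter and with a replicate block, 63 with array weights, and 48 without the low-correlation arrays, a set that has 2 short controls fewer. For the long course 33 of 34 were kept with the spike-in level as a block and 26 in the low spike-in arrays alone.

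Member probe sets past the threshold at any time in the short course numbered 20, and 33 with array weights, 12 without low-correlation arrays, 11 with 1 probe set per gene, 12 with the rescaled array on its own scale, and 12 (without 72 h replicate 2) to 24 on leaving out single arrays. At 0.25-0.75 h the 2 became 1 with quantile normalization, no filter or 1 probe set per gene, 4 with weights, 0 without low-correlation arrays or with the array on its own scale, and 0 (without control replicate 3) to 7 (without control replicate 2). At 1-2 h the 3 became 5 with weights, 0 without low-correlation arrays, and 1 to 9 (without 2 h replicate 1 and control replicate 2). At 4-8 h the 16 became 3 without low-correlation arrays and 10 with 1 probe set per gene, and 13 to 21 leaving out arrays. At 12-18 h the 0 became 1 with median centring, a constant of 64 or the 50th percentile filter, 3 with weights, and 0 to 3 (without 7 h replicate 3). Between 30-72 h and 4-8 h the 34 became 22 and 21 under the low-correlation and 1 probe set alternatives, and 29 to 35.

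With the replicate number as a block the short counts were 16 at any time, 0 at 0.25-0.75 h, 1 at 1-2 h, 14 at 4-8 h and 33 between windows, and the long counts 27, 4, 15, 12 and 15. The main fit did not use the numbers. In the long course replicate 4 had high spike-in signal in the controls and at every time, so there this block overlaps with the spike-in level.

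Leaving out single long-course arrays gave 18 to 25 at any time, 3 to 5 at 6-18 h, 8 to 13 at 24-48 h, 8 to 14 at 72-168 h and 14 to 16 between windows. The high spike-in arrays alone, a set of 15 with 1 control, gave 0 at any time and in each window and 1 between windows. There the 72-168 h changes of Cyp2c11 and Cyp2c12 turned to -0.24 and 0.0784 (adjusted p = 0.959 and 0.992). Low signal limits Cyp1a1, Ugt1a9-ps and the second Cyp2d4 probe set, and no detection calls were used.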
